A study of Mus musculus with 22 samples.

Results

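The 32 genes described here encode enzymes, regulators and a carrier of sterol synthesis, and enzymes of fatty acid synthesis. Many of them are known to be controlled by sterol regulatory element-binding proteins (SREBPs). The 32 were taken as a named list from 35596 genes with deposited estimates. No cut on a measured value set the list, but earlier results of these data were known when it was chosen. All 32 were among the 12415 genes with enough reads to be tested. By role, 7 genes form the mevalonate arm, 12 lead from squalene to cholesterol, 2 serve side branches, 5 regulate the pathway or carry sterol, and 6 make or modify fatty acids. The first 19 are called sterol steps below.

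They were measured by RNA-seq (SMART-Seq2, which copies whole transcripts from few cells) in microglia, the resident macrophages of neural tissue, sorted as Fcrls+ CD11b+ cells without Ly6c from mouse retinas. The mice were 12 weeks old, and every mouse, control genotype included, had received apoptotic neurons into the vitreous. The 4 groups were phagocytic (Alexa488-positive) and non-phagocytic cells of Apoe -/- mice (6 libraries each), and phagocytic and non-phagocytic cells of wild-type C57BL/6 mice (5 libraries each). Apoe encodes apolipoprotein E, a lipid carrier. Cells were taken 24 hours after the injection. Each library came from a pool of 5 to 6 retinas of 1 sex and genotype, with 100 to 500 phagocytic cells collected, so p-values below measure the spread between pools, and the labels do not state the sex of a pool.

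Cells that engulf other cells take in membrane cholesterol. When sterol is plentiful in the endoplasmic reticulum, INSIG proteins hold SCAP and SREBP there, SREBP is not processed, and transcription of sterol synthesis genes falls; sterol derivatives at the same time activate LXR receptors, which raise efflux transporters such as ABCA1. SREBP2 mainly drives sterol synthesis and a form of SREBP1 mainly drives fatty acid synthesis, which is why the sterol steps are set beside the fatty acid genes here.

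The sequence just before the start site is where SREBP and its partner NF-Y are known to bind in several of these genes, so 4 promoters are shown: Hmgcs1, the gene with a match to the sterol regulatory element, Mvd and Sc5d, the sterol steps with the lowest p in 2 of the comparisons below, and Fasn as the fatty acid counterpart. Each run gives the 250 bases before the RefSeq start (build GRCm38.p6, the strand of the gene, read 5′ to 3′), with capitals on TCACNCCAC (sterol regulatory element consensus) and on CCAAT (the NF-Y box), on either strand, so that a box on the other strand reads ATTGG. Hmgcs1 lies at chr13:119690101-119690350 on the plus strand, Mvd at chr8:122443423-122443672, Sc5d at chr9:42264301-42264550 and Fasn at chr11:120824548-120824797, all 3 on the minus strand.
Hmgcs1: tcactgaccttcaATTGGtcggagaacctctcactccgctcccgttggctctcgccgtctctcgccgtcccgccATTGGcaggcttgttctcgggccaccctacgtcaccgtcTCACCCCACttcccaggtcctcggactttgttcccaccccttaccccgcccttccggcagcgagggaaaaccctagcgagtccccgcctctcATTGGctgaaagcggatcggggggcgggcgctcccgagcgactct
Mvd: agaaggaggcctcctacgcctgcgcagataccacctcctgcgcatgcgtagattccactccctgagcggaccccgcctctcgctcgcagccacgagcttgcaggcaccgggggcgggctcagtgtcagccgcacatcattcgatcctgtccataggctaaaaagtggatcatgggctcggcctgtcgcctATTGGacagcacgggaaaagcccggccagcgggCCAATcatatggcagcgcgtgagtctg
Sc5d: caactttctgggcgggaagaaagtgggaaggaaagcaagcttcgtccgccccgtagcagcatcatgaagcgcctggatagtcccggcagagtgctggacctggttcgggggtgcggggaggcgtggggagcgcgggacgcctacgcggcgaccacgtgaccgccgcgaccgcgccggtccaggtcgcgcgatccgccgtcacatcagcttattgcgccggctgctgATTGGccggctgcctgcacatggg
Fasn: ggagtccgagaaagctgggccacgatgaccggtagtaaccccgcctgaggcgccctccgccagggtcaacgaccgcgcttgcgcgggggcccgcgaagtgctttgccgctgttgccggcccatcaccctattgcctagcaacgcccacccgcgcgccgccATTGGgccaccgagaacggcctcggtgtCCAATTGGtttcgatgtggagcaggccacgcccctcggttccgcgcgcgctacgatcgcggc

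RefSeq windows of 300 bases (250 before the start and 50 after it) were found for 27 of the 32 members, and Fdps, Fdft1, Sqle, Stard4 and Fads1 had none in the table used. A CCAAT box stood in 15 of 16 sterol steps with a window and in 2 of 5 fatty acid genes, beside 41.1% of all 27025 genes with a window. GGGCGG, the Sp1 box, likewise stood in 15 of 16 sterol steps and 2 of 5 fatty acid genes, against 38.2% of all genes. TCACNCCAC matched in Hmgcs1 alone, starting 137 bases before the start site (position -137), against 1.44% of all genes. All 3 motifs were searched on both strands. In the Fasn run, 2 of its 3 CCAAT matches overlap, as CCAATTGG reads as the box on each strand. These are letter matches and were not tested for binding.

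Libraries held 1131239 to 3643674 estimated reads, of which 9.13% to 51.7% fell on 12 satellite-like predicted genes. Apoe itself stood at 8.91 to 34.9 CPM (counts scaled to library size by the TMM method) in phagocytic and 7.02 to 17.6 CPM in non-phagocytic Apoe-/- libraries, against 1317 to 5145 CPM in wild-type phagocytic and 869 to 1604 CPM in wild-type non-phagocytic libraries. Summed over 8 microglia markers, libraries reached 5214 to 18053 CPM, while 7 rod photoreceptor genes summed to 958 to 7087 CPM, so that RNA of rods was present in every library. Wild-type pool 4 stood apart in both sorts, with the lowest microglia sums of 5345 CPM (phagocytic) and 5214 CPM (non-phagocytic) and monocyte marker sums of 1141 and 1372 CPM, against 69.0 to 504 CPM in the other libraries. Summed border macrophage markers were 384 to 1039 CPM in phagocytic and 183 to 319 CPM in non-phagocytic Apoe-/- libraries, and 435 to 866 CPM in wild-type phagocytic and 245 to 353 CPM in wild-type non-phagocytic ones. Of these 6 markers, Cd163 was at 0 in 1 library and Lyve1 in 9 of 22 libraries. Stab1 had the highest median of the 6 in every group. It was 499 CPM (phagocytic) and 227 CPM (non-phagocytic) in Apoe-/- cells, and 427 and 219 CPM in the wild type.

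Ddx3y and Eif2s3y, both Y-linked, parted the libraries into 2 sets with a wide gap. Their reads summed to at least 51.6 estimated reads in 14 libraries and to at most 4.46 in the other 8, which were pools 4, 5 and 6 of the Apoe-/- mice and pool 5 of the wild type, each in both sorts. The sets therefore hold 3 and 3 libraries of each Apoe-/- group but 4 and 1 of each wild-type group. Within-set values are given beside each comparison below. They were added after these reads had been seen.

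All 32 members were transcribed, at levels that differed widely. TPM, which is scaled by transcript length, allows levels of different genes to be compared. Fdps, which makes farnesyl diphosphate, had the highest median (98.4 TPM over 22 libraries) and ranked first of the members in 21 of 22 libraries. Msmo1 of the demethylation complex followed with 57.5 TPM and Ebp, a sterol isomerase, with 49.6 TPM.
Acly, which supplies cytosolic acetyl-CoA, led the fatty acid genes with a median of 41.0 TPM, followed by the desaturase Fads1 with 31.2 TPM. The lowest medians were those of Acaca (5.44 TPM), Fads2 (3.50 TPM), Hsd17b7 (3.02 TPM) and Elovl6 (1.89 TPM). Elovl6 and Fads2 each had 0 reads in 1 library.
Neighbours in this order overlapped: Msmo1 spanned 15.5 to 126 TPM and Ebp 20.3 to 94.8 TPM over the same libraries.

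Phagocytic and non-phagocytic cells of Apoe-/- mice were compared first. Of the 32 members, 0 were called by edgeR (quasi-likelihood test, Benjamini-Hochberg adjusted p under 0.05), where 58 of 12415 genes (0.467%) were called, and DESeq2 (31 members with an adjusted p) and limma also called 0. At an unadjusted p under 0.05, 1 member stood higher and 0 lower, beside 1233 of 12415 genes in either direction. The 19 sterol steps had a median log2 fold change of -0.02 with 8 positive, the 6 fatty acid genes 0.02 with 4 positive, and all tested genes -0.02 with 47.7% positive. In every one of these members the 2 groups overlapped, as they did in the other pairwise comparisons below. Overlap was not counted over all tested genes, so no share of these can be set beside it. Leaving out single libraries gave sterol medians between -0.22 (phagocytic library 3 left out) and 0.13 (phagocytic library 6 left out). With the share of satellite-like reads as a covariate the sterol median was -0.21 with 6 positive. It was -0.14 with 5 positive without the 2 libraries of highest satellite-like share.

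That 1 member was Mvk, which phosphorylates mevalonate. Its level was 12.6 CPM at the lowest, 24.8 at the median and 31.6 at the highest in Apoe-/- phagocytic libraries, against 6.26, 10.8 and 18.5 CPM in Apoe-/- non-phagocytic libraries. Most phagocytic libraries lay above most non-phagocytic ones, with overlap between 12.6 and 18.5 CPM. The log2 difference was 0.98 ± 0.44 (SE; edgeR adjusted p = 0.442, unadjusted p = 0.0353, n = 6 each).
Nsdhl, a dehydrogenase of the demethylation complex, ranged over 3.60, 19.5 and 40.5 CPM (lowest, median, highest) in phagocytic and 3.36, 8.99 and 19.6 CPM in non-phagocytic libraries. Its difference of 1.01 ± 0.53 had an edgeR adjusted p of 0.548, and the groups overlapped over most of their range.
Fads1, the desaturase that makes long polyunsaturated fatty acids, had 96.4, 111 and 150 CPM in phagocytic and 50.4, 93.1 and 113 CPM in non-phagocytic libraries. At 0.46 ± 0.24 (edgeR adjusted p = 0.554) it was the fatty acid gene of lowest p, with overlap between 96.4 and 113 CPM.

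Within each set of libraries the medians lay farther from 0. With Y-linked reads (3 against 3), edgeR called 0 members and 0% of genes, and 1 member and 657 of 12525 genes had an unadjusted p under 0.05. There 13 of 19 sterol steps were positive with a median of 0.34, and 5 of 6 fatty acid genes with a median of 0.33. This set holds non-phagocytic library 2, with 51.7% satellite-like reads and 890406 reads outside them. Its mean log2 CPM of the sterol steps was 5.06, beside 5.70 and 5.63 in non-phagocytic libraries 1 and 3. The part of this library in the median was not tested. Without Y-linked reads (3 against 3), 5 of 19 sterol steps were positive with a median of -0.37, and 1 of 6 fatty acid genes with a median of -0.45. The difference between the sets was not tested.

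In the set without Y-linked reads, 1 of 32 members was called (edgeR), where 123 of 13978 genes (0.88%) were called. It was Dhcr7, which carries out the last step of cholesterol synthesis, and it was named after its values were seen. Apoe-/- phagocytic libraries 4, 5 and 6 had 18.4, 22.9 and 27.3 CPM, against 49.9, 69.1 and 65.6 CPM in non-phagocytic libraries 4, 5 and 6. All 3 phagocytic libraries lay below all 3 non-phagocytic ones, and Dhcr7 fell by 1.45 ± 0.32 (log2, SE; edgeR adjusted p = 0.0402).
Libraries 1, 2 and 3, which had Y-linked reads, gave 76.3, 56.7 and 47.4 CPM in phagocytic and 65.3, 16.4 and 58.8 CPM in non-phagocytic cells, which overlap. With all 12 Apoe-/- libraries, the value for Dhcr7 was -0.37 on the log2 scale. Another 6 members had an unadjusted p under 0.05 in the set without Y-linked reads, all of them lower in phagocytic cells: the sterol steps Acat2 (-1.01), Idi1 (-1.49) and Lss (-1.09), the regulators Srebf2 (-0.72) and Insig1 (-0.81), and Acly (-0.58), with edgeR adjusted p between 0.127 and 0.488. With Dhcr7 that is 7 of 32 members, beside 1385 of 13978 genes in either direction.
Depth moved with this result: reads outside the satellite-like genes numbered 854872 to 1001662 in phagocytic libraries 4 to 6 and 1167314 to 2348654 in non-phagocytic libraries 4 to 6. Border macrophage sums there, where Stab1 weighs most, were 675 to 1039 CPM in phagocytic and 241 to 319 CPM in non-phagocytic cells. Their part in the result was not tested.

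**Figure D1:**
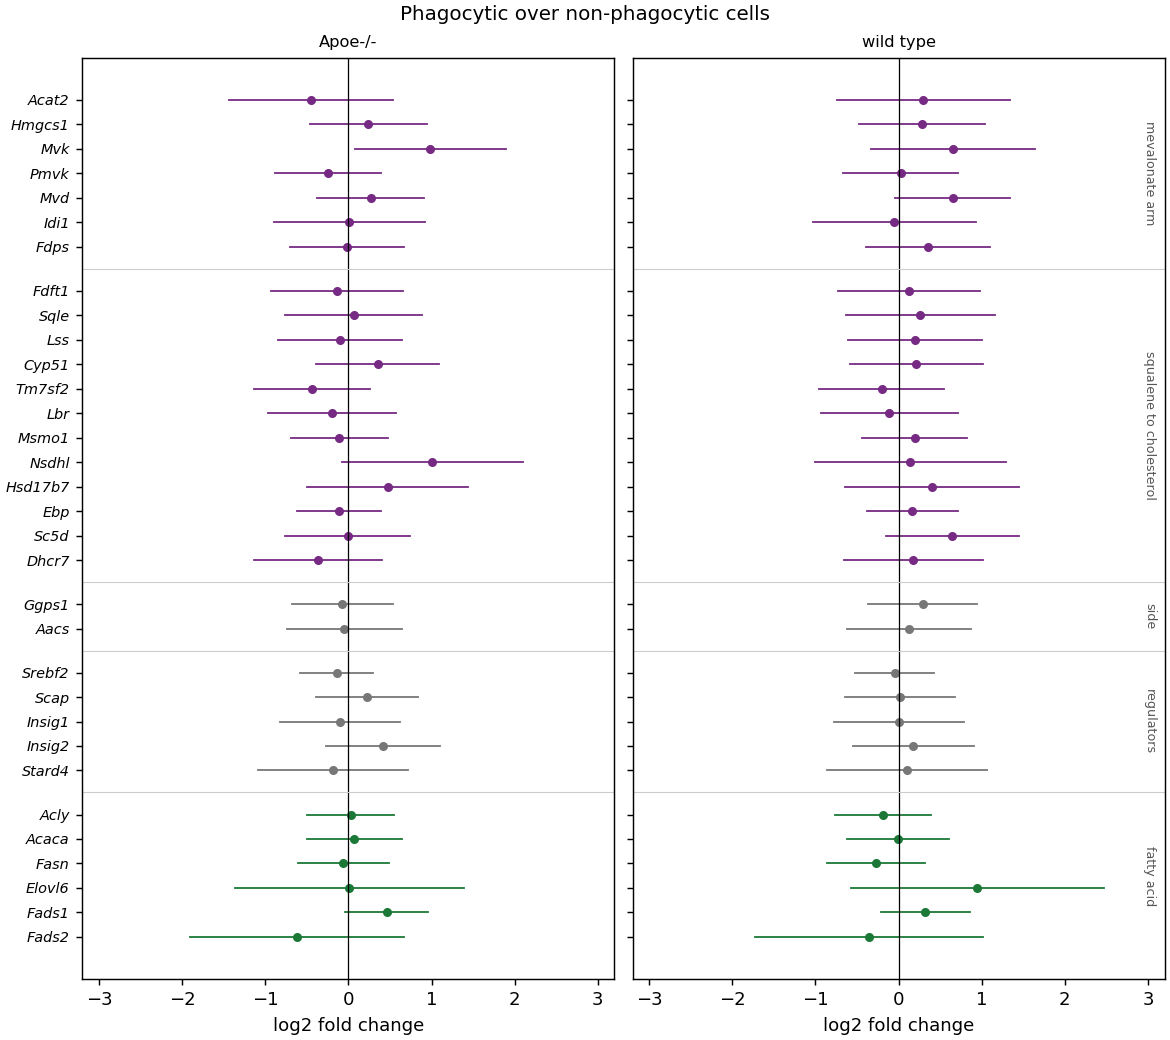
Log2 fold change of each member in phagocytic over non-phagocytic cells of Apoe-/- mice (left) and wild-type mice (right), with the 95% interval of the edgeR fit as a line (purple, sterol steps; grey, side branches, regulators and carrier; green, fatty acid genes). All intervals cross 0 except that of Mvk in Apoe-/- cells, at 0.98.

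Wild-type phagocytic cells were next set against wild-type non-phagocytic cells. edgeR called 0 of 32 members, where it called 26 of 12415 genes (0.209%), and 0 members had an unadjusted p under 0.05, beside 961 of 12415 genes; DESeq2 and limma called 0. Sterol steps leaned to the positive side, 16 of 19 with a median of 0.20, against 2 of 6 fatty acid genes with a median of -0.10 and 49.2% of all genes with a median of -0.01. No member's groups were separate. The sterol median was 0.03 with 12 positive when phagocytic library 3 was left out, and 0.08 with 15 positive when non-phagocytic library 4 was. Dropping phagocytic library 4 gave 0.39, dropping phagocytic library 5 or non-phagocytic library 2 gave 0.32, and dropping non-phagocytic library 3 gave 0.35.
Within the set with Y-linked reads (4 against 4) the sterol median was 0.22 with 17 of 19 positive, and 0 members were called where 0.0479% of genes were (edgeR; 1 member and 667 of 12525 genes at an unadjusted p under 0.05). Without Y-linked reads there was 1 library a group, 10 of 19 were positive with a median of 0.02, and 0 members were called where 0.1% of genes were.

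Mvd, which makes isopentenyl diphosphate, had the lowest p of the members. Wild-type phagocytic libraries 1 to 5 gave 96.8, 69.5, 73.3, 28.7 and 39.5 CPM, against 28.2, 56.1, 49.2, 37.9 and 23.8 CPM in wild-type non-phagocytic libraries 1 to 5. Phagocytic libraries 1, 2 and 3 lay above all non-phagocytic ones, and phagocytic libraries 4 and 5 lay among them. The difference was 0.65 ± 0.33 (edgeR adjusted p = 0.672, unadjusted p = 0.0627, n = 5 each).
Sc5d, a sterol desaturase late in the pathway, gave 83.8, 87.9, 128, 24.4 and 42.6 CPM in phagocytic and 32.7, 47.2, 78.5, 27.0 and 48.1 CPM in non-phagocytic libraries. The same 3 phagocytic libraries stood highest, with library 4 lowest of all 10, and the difference was 0.64 ± 0.39 (edgeR adjusted p = 0.759).
Mvk had 9.76, 17.7, 32.6, 14.3 and 6.17 CPM in phagocytic and 1.62, 9.72, 8.49, 7.59 and 23.0 CPM in non-phagocytic libraries. These overlapped widely, at 0.65 ± 0.48 (edgeR adjusted p = 0.841), and the value from the 2 libraries without Y-linked reads had the opposite sign.

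Apoe-/- phagocytic cells were then compared with wild-type phagocytic cells. edgeR called 0 of 32 members and 4 of 12415 genes (0.0322%). At an unadjusted p under 0.05, 2 of 32 members were lower and 0 higher, beside 822 of 12415 genes in either direction; DESeq2 and limma called 0. Negative values prevailed among the sterol steps, with 3 of 19 positive and a median of -0.36, beside 1 of 6 positive and a median of -0.05 in fatty acid genes and 49.5% and -0.00 over all genes. Every member's groups overlapped. This comparison shares the wild-type phagocytic libraries with the one before, so the lean of the sterol steps in the 2 is not independent.

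The sterol lean was not seen in all libraries. Among those with Y-linked reads (3 against 4), 11 of 19 sterol steps were positive with a median of 0.06, and 6 of 6 fatty acid genes with a median of 0.12. There edgeR called 0 members and 0.016% of genes, with 0 members and 476 of 12525 genes at an unadjusted p under 0.05. Among those without (3 against 1), 4 of 19 were positive with a median of -0.50, on a single wild-type library, and 0 members were called where 0.0286% of genes were (edgeR; 3 members and 431 of 13978 genes at an unadjusted p under 0.05). With the presence of Y-linked reads as a covariate the sterol median was -0.21 with 3 positive, and with the share of satellite-like reads as a covariate -0.15 with 4 positive. It was -0.17 without wild-type library 3 or Apoe-/- library 6 and -0.22 without Apoe-/- library 5, and -0.55 without Apoe-/- library 1.

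Sc5d had the lowest p here, with 15.8, 35.1 and 76.5 CPM (lowest, median, highest) in Apoe-/- phagocytic libraries, against 83.8, 87.9, 128, 24.4 and 42.6 CPM in wild-type phagocytic libraries 1 to 5. Wild-type libraries 1 to 3 lay above all Apoe-/- libraries, and libraries 4 and 5 within their range. The difference was -0.85 ± 0.37 (edgeR adjusted p = 0.74, unadjusted p = 0.031).
Acat2, the thiolase that joins acetyl-CoA units at the head of the pathway, had 8.64, 21.6 and 47.8 CPM in Apoe-/- and 85.4, 52.5, 82.8, 8.50 and 22.4 CPM in wild-type phagocytic libraries. Again wild-type libraries 1 to 3 were above all Apoe-/- ones while library 4 was below all of them, and the difference was -1.07 ± 0.49 (edgeR adjusted p = 0.74). Acat2 has a near-identical relative, Acat3, with a median of 6.24 estimated reads beside 62.6 for Acat2, and reads may be shared between them.
Mvd stood at 13.5, 39.5 and 64.7 CPM in Apoe-/- phagocytic libraries, beside the wild-type values given above. Wild-type libraries 1 to 3 were again above all Apoe-/- ones, and the difference was -0.65 ± 0.32 (edgeR adjusted p = 0.76).

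Non-phagocytic cells were compared between the genotypes in the same way. Of 32 members edgeR called 0, and it called 2 of 12415 genes (0.0161%); 0 members had an unadjusted p under 0.05, beside 472 of 12415 genes, and DESeq2 and limma called 0. Sterol steps were positive in 7 of 19 with a median of -0.18, fatty acid genes in 1 of 6 with a median of -0.16, and all genes in 49.7% with a median of -0.00. The groups of every member overlapped. The sterol median was 0.10 with 12 positive once the share of satellite-like reads was a covariate, 0.02 without wild-type library 3, -0.08 without wild-type library 2 and -0.11 without Apoe-/- library 2. With limma on the deposited FPKM values it was -0.40 or -0.41, by the constant added, with 1 of 19 positive and medians over all genes of -0.13 and -0.16. Within sets it was -0.09 (with Y-linked reads, 3 against 4) and -0.05 (without, 3 against 1), with 0 members called in either, beside 0.016% and 0.0143% of genes (edgeR).

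Insig1, whose product retains SCAP in the endoplasmic reticulum and which is itself a known SREBP target, had 10.9, 75.1 and 94.2 CPM (lowest, median, highest) in Apoe-/- non-phagocytic libraries, against 104, 117, 101, 78.6 and 82.8 CPM in wild-type non-phagocytic libraries 1 to 5. The lowest Apoe-/- value was that of library 2, which rests on 13 estimated reads in the library of highest satellite-like share (51.7%). Apoe-/- libraries 1 and 3, at 89.8 and 94.2 CPM, lay within the wild-type range, and the other 4 lay below it. The difference was -0.52 ± 0.36 (edgeR adjusted p = 0.999).
Nsdhl had 3.36, 8.99 and 19.6 CPM in Apoe-/- and 6.34, 22.4, 25.0, 11.9 and 23.0 CPM in wild-type libraries, and differed by -0.77 ± 0.55 (edgeR adjusted p = 0.999). Cyp51, which demethylates lanosterol, had 56.6, 66.2 and 112 CPM in Apoe-/- and 102, 144, 153, 80.6 and 80.2 CPM in wild-type libraries, with a difference of -0.50 ± 0.37 (edgeR adjusted p = 0.999). Both genes overlapped between genotypes.

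**Figure D2:**
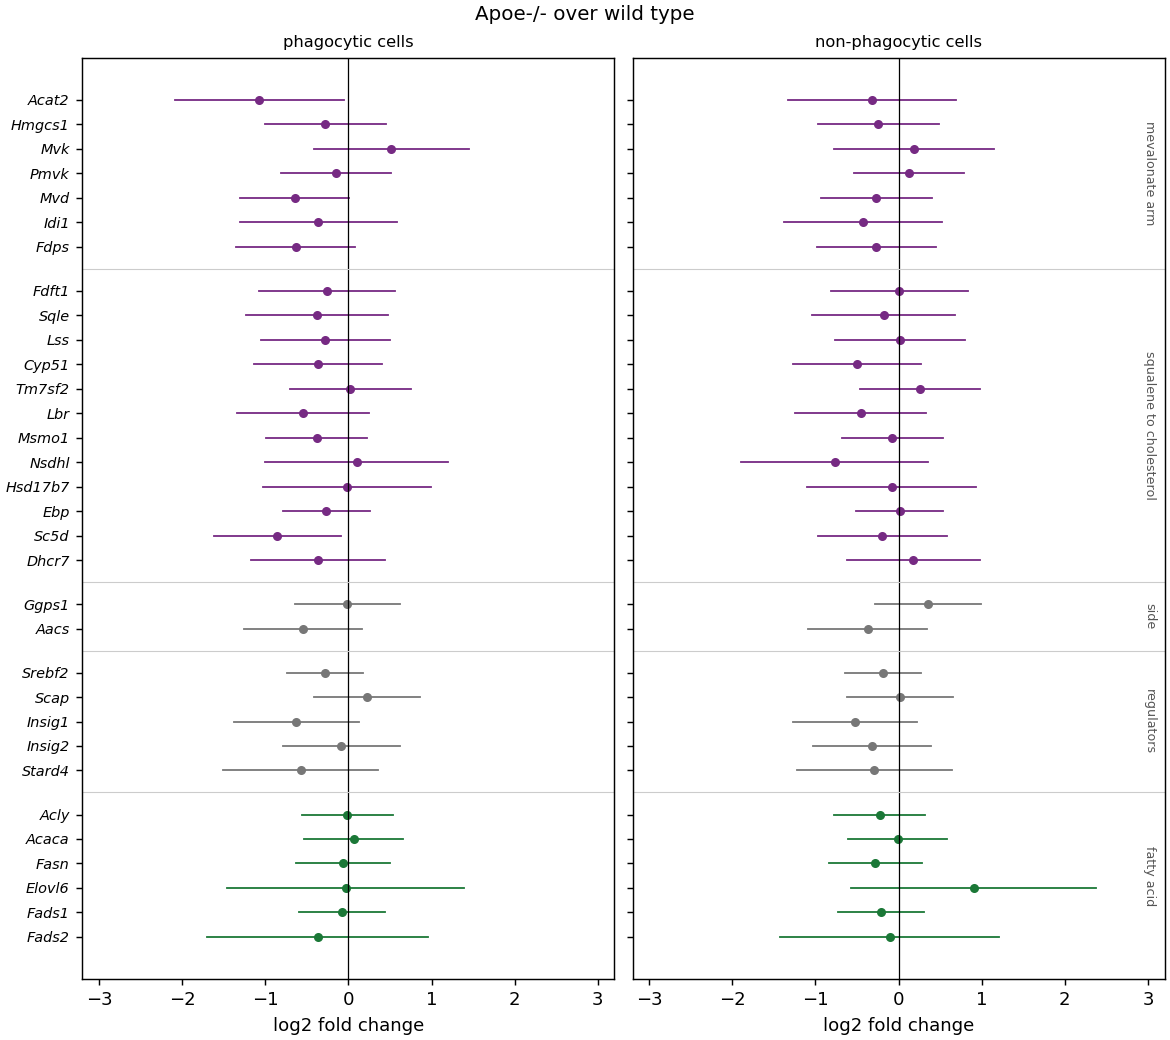
Log2 fold change of each member in Apoe-/- over wild-type cells, phagocytic (left) and non-phagocytic (right), drawn as in the plot for the sort. In phagocytic cells 16 of 19 sterol steps lie left of 0, with intervals clear of 0 for Acat2 (-1.07) and Sc5d (-0.85).

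Whether the sort acted differently in the 2 genotypes was tested as an interaction. edgeR called 0 of 12415 genes (0%) and 0 of 32 members, with 301 genes and 0 members at an unadjusted p under 0.05. DESeq2 called 2 genes and 0 members, and limma 0 of either. Sterol steps were positive in 5 of 19 with a median of -0.27. Fatty acid genes were positive in 4 of 6 with a median of 0.10, and all genes in 48.5% with a median of -0.01. From limma on FPKM the sterol median was 0.00 or -0.02, by the constant added, with 10 or 9 positive. Within the libraries with Y-linked reads edgeR called 0 members and 0% of genes, and the sterol median was -0.11 with 8 of 19 positive. Within those without, where each wild-type sort has 1 library, the sterol median was -0.56 with 4 of 19 positive. The members of lowest p were Sc5d at -0.66 ± 0.53, Nsdhl at 0.87 ± 0.77 and Acat2 at -0.75 ± 0.70, all with an edgeR adjusted p of 1.00. Intervals for single members were wide: that of Sc5d ran from -1.75 to 0.44, so differences of this size could not be told from 0.

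Levels of the genes that mark each branch were as follows. Hmgcs1, which makes HMG-CoA, had 28.2, 52.5 and 114 CPM (lowest, median, highest) in phagocytic and 24.3, 49.3 and 92.5 CPM in non-phagocytic Apoe-/- libraries. Wild-type phagocytic libraries 1 to 5 had 89.4, 57.7, 128, 50.3 and 63.1 CPM, against 44.0, 102, 79.9, 45.9 and 47.3 CPM in wild-type non-phagocytic ones. Its differences were between -0.28 and 0.28 on the log2 scale in the 4 pairwise comparisons, each smaller than its SE.
Sqle, the squalene epoxidase, spanned 12.5 to 88.1 CPM in Apoe-/- phagocytic (median 45.1) and 18.9 to 71.8 CPM in Apoe-/- non-phagocytic libraries (median 53.1). In wild-type phagocytic libraries 1 to 5 it was 77.1, 72.4, 130, 18.5 and 44.7 CPM, against 60.4, 82.9, 62.1, 45.3 and 34.0 CPM in non-phagocytic ones. As for Sc5d, wild-type phagocytic library 3 was the highest and library 4 the lowest of its group.

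Srebf2, which encodes SREBP2, varied less. It had 41.2, 61.4 and 104 CPM in phagocytic and 57.8, 73.3 and 83.6 CPM in non-phagocytic Apoe-/- libraries. Wild-type phagocytic libraries gave 69.3, 98.7, 86.7, 77.8 and 69.2 CPM, against 98.2, 82.7, 84.2, 60.8 and 89.6 CPM in non-phagocytic ones. In wild-type cells the difference between sorts was -0.05 ± 0.23 (log2, SE), an interval of -0.52 to 0.43.
Insig1 had 25.9, 59.0 and 101 CPM in Apoe-/- phagocytic libraries and 135, 115, 116, 36.8 and 82.6 CPM in wild-type phagocytic libraries, a difference of -0.63 ± 0.37 (edgeR adjusted p = 0.798). The remaining regulators, the escort Scap, the second INSIG gene Insig2 and the sterol carrier Stard4, lay between -0.58 and 0.42 in all 4 pairwise comparisons, with group means of 16.8 to 34.2 CPM.

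Among the fatty acid genes, Acaca, which makes malonyl-CoA, had the smallest differences between group means. It had 33.7, 39.7 and 44.9 CPM in phagocytic and 21.7, 39.7 and 57.3 CPM in non-phagocytic Apoe-/- libraries, and 27.8, 20.9, 48.1, 60.5 and 34.0 CPM in wild-type phagocytic against 29.5, 39.0, 18.2, 49.8 and 55.2 CPM in wild-type non-phagocytic libraries. Group means differed by at most 0.07 on the log2 scale in the fit.
Fasn, which builds palmitate, had 39.6, 70.5 and 93.3 CPM in phagocytic and 42.8, 65.9 and 100 CPM in non-phagocytic Apoe-/- libraries. The wild-type phagocytic values were 119, 55.3, 93.9, 32.9 and 54.6 CPM, against 70.5, 98.7, 108, 64.0 and 87.5 CPM in non-phagocytic libraries. Its differences ran from -0.28 to -0.06 over the 4 pairwise comparisons, with groups that overlapped each time.
Acly averaged 166 ± 84.2 CPM (phagocytic) and 163 ± 44.5 CPM (non-phagocytic) in Apoe-/- cells, and 168 ± 33.2 CPM (phagocytic) and 192 ± 44.5 CPM (non-phagocytic) in the wild type (SD). Elovl6, an elongase, and Fads2, a desaturase, had group means of 3.77 to 14.9 CPM and log2 fold changes from -0.62 to 0.95 with SE of 0.62 to 0.74.

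**Figure D3:**
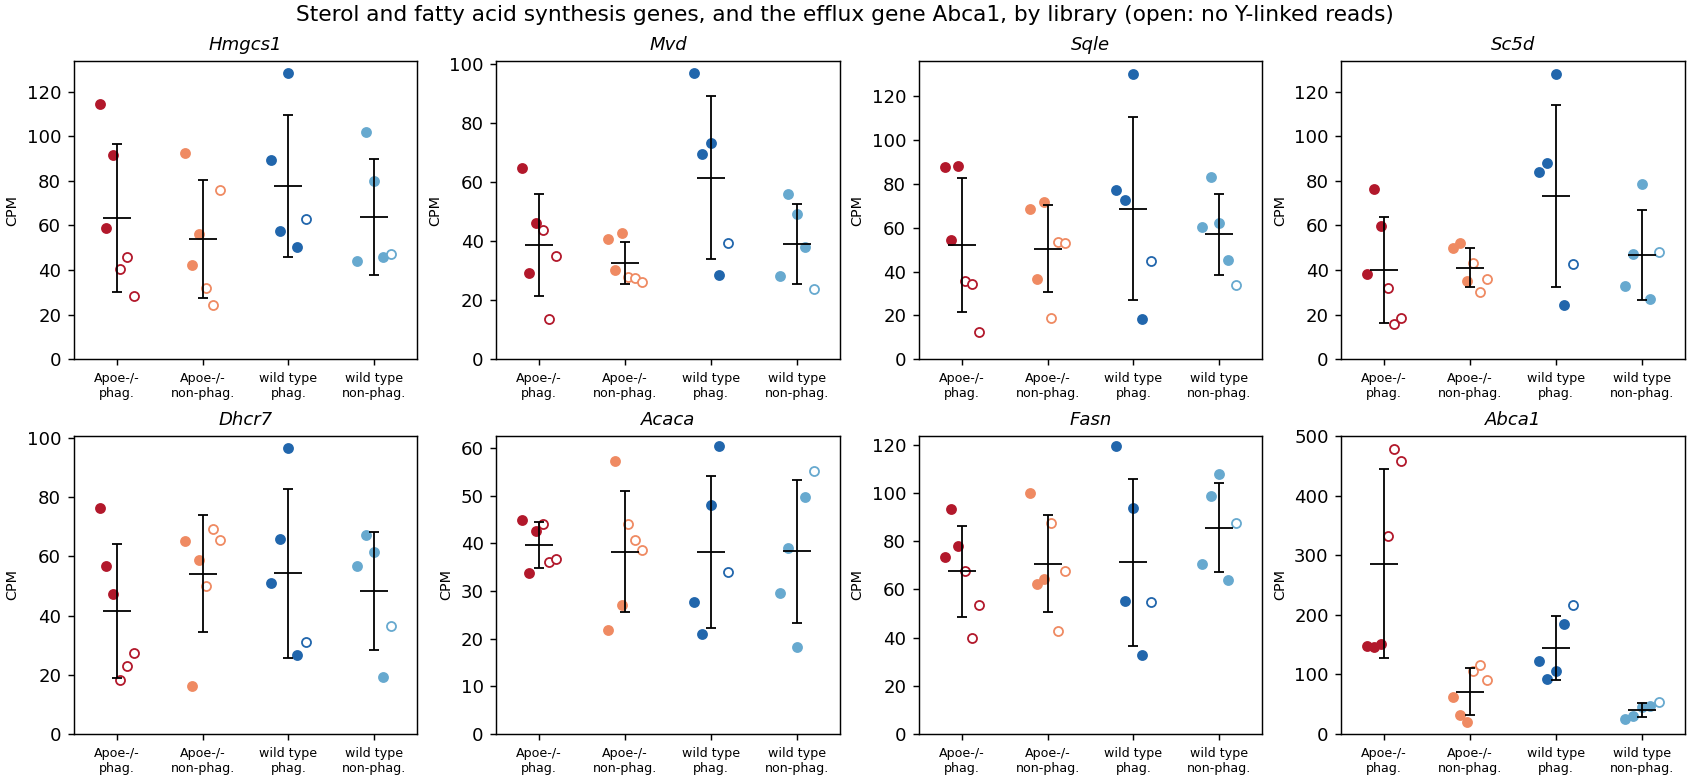
CPM in each library (points) with the group mean and SD (bars) for 5 sterol steps, 2 fatty acid genes and Abca1, with Apoe-/- groups left of wild-type groups and open points for libraries without Y-linked reads. In Apoe-/- phagocytic cells the open points of Dhcr7 lie lowest, at 18.4 to 27.3 CPM, and those of Abca1 highest, at 333 to 478 CPM.

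Groups overlapped throughout in the remaining sterol steps, a count not made over all tested genes. Fdps had 114 ± 62.1 CPM (phagocytic) and 116 ± 47.8 CPM (non-phagocytic) in Apoe-/- cells, and 179 ± 82.5 CPM (phagocytic) and 140 ± 34.3 CPM (non-phagocytic) in the wild type (SD, n = 6 and 5). Msmo1 was at 108 ± 43.6 and 118 ± 32.9 CPM in the same Apoe-/- groups and at 142 ± 58.3 and 124 ± 41.0 CPM in the wild-type ones.
The isomerase Idi1, the kinase Pmvk, squalene synthase (Fdft1), lanosterol synthase (Lss), the reductases Tm7sf2 and Lbr, the C4-demethylation reductase Hsd17b7 and Ebp lay between -0.55 and 0.47 in the 4 pairwise comparisons. The side-branch genes Ggps1, which makes the lipid used to prenylate small GTPases, and Aacs, which activates acetoacetate, lay between -0.55 and 0.35. Exons of Fdft1 overlap those of Ctsb on the opposite strand, where Ctsb had a median of 5195 estimated reads and Fdft1 99.7, and exons of Cyp51 overlap Akap9, of Lbr Dnah14 and of Ggps1 Arid4b in the same way. Tm7sf2 overlaps Vps51 on its own strand. The strand setting of the counting is not given in the sources used here, so reads of these pairs may be mixed.

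Libraries of 1 group differed in the sterol steps as a whole. The mean log2 CPM of the 19 sterol steps was 5.87, 5.52, 5.88, 4.99, 4.42 and 4.42 in Apoe-/- phagocytic libraries 1 to 6, and 5.70, 5.06, 5.63, 5.08, 4.96 and 5.12 in Apoe-/- non-phagocytic libraries 1 to 6. In wild-type phagocytic libraries 1 to 5 it was 5.84, 5.87, 6.33, 4.69 and 5.16, against 5.27, 5.58, 5.91, 5.05 and 5.25 in wild-type non-phagocytic libraries. The 3 Apoe-/- phagocytic libraries without Y-linked reads were thus lower than the 3 with them, without overlap, while wild-type phagocytic library 4, which has Y-linked reads, was the lowest of its group.
By gene, wild-type phagocytic library 4 was the lowest of its group in 15 of 19 sterol steps, against 20.6% of all tested genes, and library 3 the highest in 13 of 19, against 17.5%. The median SD within a group was 0.85 for sterol steps against 0.54 for all tested genes in Apoe-/- phagocytic libraries and 0.60 against 0.56 in Apoe-/- non-phagocytic ones. It was 0.76 against 0.47 in wild-type phagocytic and 0.53 against 0.51 in wild-type non-phagocytic libraries (log2 CPM).
Microglia marker sums moved with these values: the low Apoe-/- phagocytic libraries 5 and 6 had 5436 and 6306 CPM and wild-type phagocytic library 4 had 5345 CPM, beside 8492 to 16592 CPM in the other phagocytic libraries. The part of cell mixture, depth and sex in this spread was not tested, and in bulk samples fewer cells of a type and less RNA per cell cannot be told apart.

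**Figure D4:**
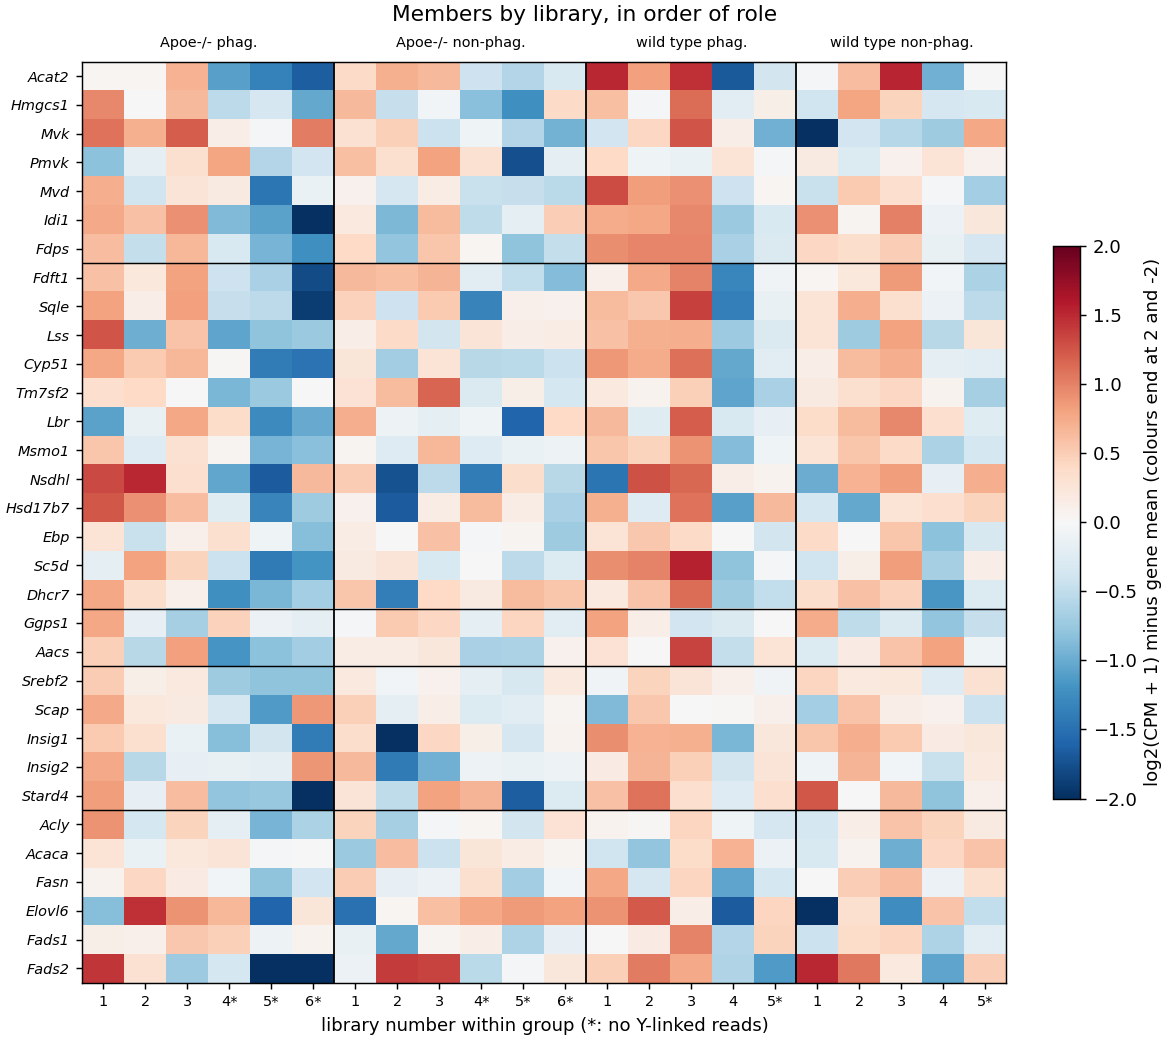
Members (rows, by role, separated by black lines) in each library (columns, by group), coloured by log2(CPM + 1) minus the gene's mean over 22 libraries. Sterol steps are mostly blue in Apoe-/- phagocytic libraries 5 and 6 and in wild-type phagocytic library 4, and mostly red in wild-type phagocytic library 3, the highest in 13 of 19 sterol steps.

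Sterol steps and fatty acid genes were also set against each other library by library, as the mean log2 CPM of the 19 minus that of the 6, a description for which no p is given. It averaged 0.08 ± 0.29 in phagocytic and -0.00 ± 0.41 in non-phagocytic Apoe-/- libraries, and 0.29 ± 0.23 in wild-type phagocytic and 0.19 ± 0.39 in wild-type non-phagocytic libraries (SD, n = 6 and 5). Phagocytic minus non-phagocytic cells gave 0.08 in Apoe-/- and 0.11 in wild-type mice, and Apoe-/- minus wild type gave -0.22 in phagocytic and -0.19 in non-phagocytic cells. All 4 differences were smaller than the SD within either group compared, and 2 of them changed sign with another way of scoring: from summed TPM the Apoe-/- sort difference was -0.13 and the non-phagocytic genotype difference 0.08.
The fatty acid mean shared part of the pattern. It was 5.54, 5.52, 5.47, 5.35, 4.22 and 4.53 in Apoe-/- phagocytic libraries 1 to 6, low in libraries 5 and 6 as the sterol mean was. Libraries 4 to 6, without Y-linked reads, lay below libraries 1 to 3 without overlap here too, though library 4 by little. In wild-type phagocytic libraries 1 to 5 the fatty acid mean was 5.52, 5.44, 5.74, 4.66 and 5.05, low in library 4.

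**Figure D5:**
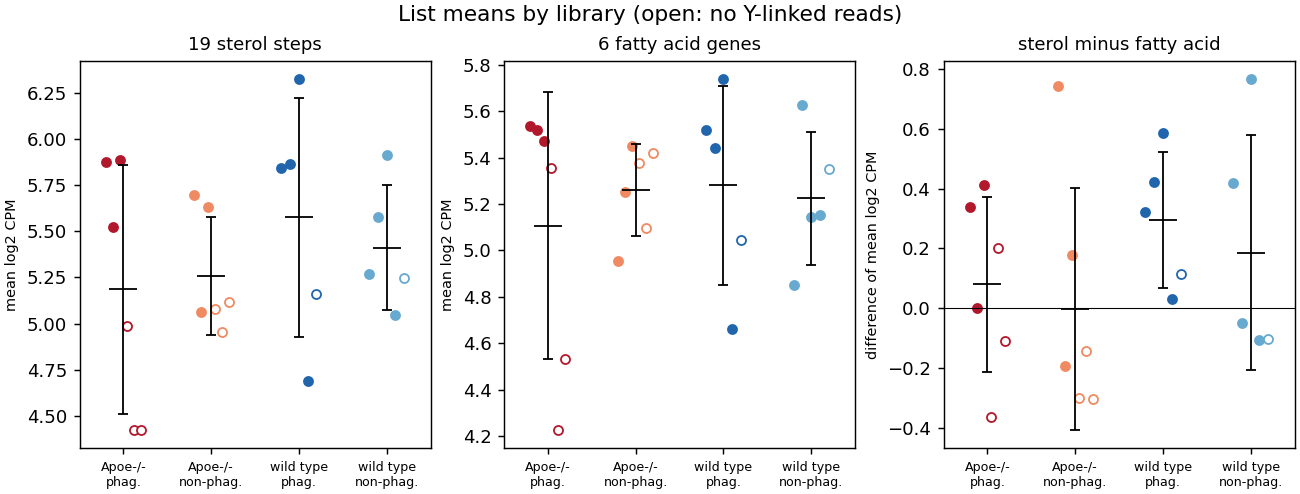
Mean log2 CPM of the 19 sterol steps (left) and of the 6 fatty acid genes (middle), and their difference (right), in each library with group mean and SD, open points for libraries without Y-linked reads. Groups overlap in every panel, and the difference averages 0.08, -0.00, 0.29 and 0.19 in the 4 groups as drawn.

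Genes of sterol efflux that LXR is known to induce were read beside the synthesis genes. Abca1, the cholesterol exporter, had 147, 242 and 478 CPM (lowest, median, highest) in Apoe-/- phagocytic libraries, against 20.7, 76.4 and 116 CPM in Apoe-/- non-phagocytic ones. Every phagocytic library lay above every non-phagocytic one, and Abca1 rose by 2.00 ± 0.38 (log2, SE; edgeR adjusted p = 0.0125, n = 6 each). In wild-type cells it was 123, 93.0, 106, 185 and 217 CPM in phagocytic against 24.7, 29.9, 44.7, 46.6 and 53.7 CPM in non-phagocytic libraries, also without overlap, at 1.85 ± 0.42 (edgeR adjusted p = 0.0568).
Abcg1, a second exporter, had 69.7, 194 and 304 CPM in phagocytic and 22.8, 51.8 and 76.2 CPM in non-phagocytic Apoe-/- libraries, which overlapped between 69.7 and 76.2 CPM. It rose by 1.88 ± 0.41 (edgeR adjusted p = 0.0272), while in wild-type cells the value was 0.79 ± 0.44 (edgeR adjusted p = 0.732). The difference between the genotypes was 1.10 ± 0.60 (edgeR adjusted p = 1.00). Mylip, an LXR-induced ubiquitin ligase, was at 0.12 in Apoe-/- and -0.58 in wild-type cells, with adjusted p of 0.952 and 0.672 (edgeR).
Within Apoe-/- phagocytic libraries, Abca1 was 147, 147 and 151 CPM in libraries 1 to 3 and 333, 478 and 458 CPM in libraries 4 to 6, so the 3 libraries lowest in the sterol mean were the 3 highest in Abca1.

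Of 20 further genes of both pathways, 16 were tested and edgeR called 0 in each of the 5 comparisons. At an unadjusted p under 0.05 there were 3 of 16 in the Apoe-/- sort comparison (1233 of all 12415 genes) and 2 in that of the wild type (961 genes). There were 0 between genotypes in phagocytic cells (822 genes), 2 in non-phagocytic cells (472 genes) and 1 in the interaction (301 genes); DESeq2 and limma were not summarised for this list. Rdh11, a retinol dehydrogenase known as an SREBP target, came nearest, with 13.5, 24.9 and 43.2 CPM (lowest, median, highest) in phagocytic and 6.72, 12.9 and 14.7 CPM in non-phagocytic Apoe-/- libraries. Its difference was 1.20 ± 0.31 (edgeR adjusted p = 0.0996), with overlap between 13.5 and 14.7 CPM, and 0.01 ± 0.33 in wild-type cells. In the interaction, every tested gene of this list, Rdh11 included, had an edgeR adjusted p of at least 0.9999. A difference between the genotypes was thus not shown.
Soat1, which esterifies cholesterol for storage, differed by 0.49 ± 0.23 in Apoe-/- and 0.61 ± 0.25 in wild-type cells, with edgeR adjusted p of 0.482 and 0.548. Scd2, a fatty acid desaturase, had 26.1, 41.9 and 61.3 CPM in phagocytic and 17.0, 24.7 and 43.7 CPM in non-phagocytic Apoe-/- libraries, with overlap, and differed by 0.63 ± 0.24 (edgeR adjusted p = 0.33). Between Apoe-/- and wild-type non-phagocytic cells, Rdh11 differed by -0.80 ± 0.32 and Scd2 by -0.59 ± 0.24, both with an edgeR adjusted p of 0.999.
Elovl5, an elongase, differed by -0.34 ± 0.18 between Apoe-/- and wild-type phagocytic cells (edgeR adjusted p = 0.798). Slc25a1, which exports mitochondrial citrate for acetyl-CoA, differed by 0.03 ± 0.24 in Apoe-/- and 0.61 ± 0.26 in wild-type cells (edgeR adjusted p = 0.986 and 0.581).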

How the data were processed

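For each of 22 libraries the authors deposited, per transcript (116248 in all), the estimated count of its reads, TPM, length and effective length in bases, as named per the file headers. A second table that the authors deposited holds FPKM values per gene and served one alternative only. Its title line says that genes above an FPKM of 5 are included, and all 16734 rows exceeded 5 in at least 1 library. No sample column was left unmapped. The names Salmon 1.4.0, R 4.0.3, DESeq2 1.30.1 and build mm10 come per the submitters' processing notes. How reads were trimmed and filtered, which annotation was used and the strand setting: not given in the sources used here.

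Transcripts were matched to the GENCODE annotation of GRCm38, where 176 did not match and held 0.118% to 0.262% of a library's reads. Estimated counts were summed per gene and rounded. The main test was the quasi-likelihood test of edgeR 4.0.16 under R 4.3.3, as a single fit of 22 libraries in 4 groups, with genes kept by filterByExpr, TMM scaling and a prior count of 2 for log values. Benjamini-Hochberg adjustment ran over all 12415 genes tested, with a threshold of 0.05. Genes varied between replicate libraries with a common coefficient of 0.426. Levels are CPM after TMM scaling. No library was a copy of another, with a chi-square per degree of freedom of 6.43 or more between libraries of a group.

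The members and lists were chosen with earlier results of these data known. Values in each library (lowest, median and highest in groups of 6) are given for called members, for the 3 members of lowest p in each comparison and for Hmgcs1, Sqle, Srebf2, Insig1, Acaca and Fasn. Of other genes, Abca1, Abcg1, Mylip and the 2 genes of lowest p per comparison in the further pathway list are named. Alternatives covered scaling, filters, DESeq2 1.42.0, limma 3.58.1 on FPKM, covariates, the replicate block, and libraries left out. Where 1 library stood alone in a group, the fit took its spread from the other groups.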

Additional observations from a re-analysis of the deposited data

Results flagged for a closer look

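Within groups, 140 sets of libraries were examined, for each member and for 3 summed or mean scores of the lists, and 4 of them, all of single members, held a library far from the others of its group, where chance gives about 1 in 20. Msmo1 stood at 183 CPM in Apoe-/- non-phagocytic library 3, where the next highest had 119 CPM. Dhcr7 stood at 16.4 CPM in Apoe-/- non-phagocytic library 2, where the next lowest had 49.9 CPM. This library has Y-linked reads, so it is not among those behind the call for Dhcr7. It had the highest satellite-like share of all libraries, 51.7%, and the fewest reads outside these genes in its group, 890406. Ggps1 stood at 45.8 CPM in wild-type non-phagocytic library 1, where the next highest had 21.96 CPM, and Aacs at 92.6 CPM in wild-type phagocytic library 3, where the next had 43.7 CPM. That last library was also the highest of its group in 13 of 19 sterol steps.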

How the results depend on the processing

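No member was called under any alternative except in the libraries without Y-linked reads, chosen after seeing the data, where the count of called members in the Apoe-/- sort comparison was 1 (Dhcr7). Leaving out single libraries gave 0 called members throughout. In the 2 wild-type libraries without Y-linked reads, Sc5d was at -0.16 and Mvk at -1.86 for the sort, the opposite sign to all libraries, with each lone library assumed to vary like the other groups. The sterol minus fatty acid difference ranged over 0.04 to 0.26 (wild-type sort), 0.02 to 0.23 (Apoe-/- sort), -0.28 to -0.13 (genotype, phagocytic), -0.34 to -0.04 (genotype, non-phagocytic) and -0.17 to 0.12 (interaction) with single libraries left out. For the interaction it was -0.03, but -0.44 from summed TPM and -0.43 as a median over genes. In the same 2 scorings it was 0.31 and 0.33 (wild-type sort, 0.11 in the main scoring), -0.13 and -0.10 (Apoe-/- sort, 0.08), -0.36 and -0.48 (genotype, phagocytic, -0.22), and 0.08 and -0.04 (genotype, non-phagocytic, -0.19), so that the sign turned in the Apoe-/- sort and, from summed TPM, in non-phagocytic cells. The cause was not tested.

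Counts over all genes moved more. With the replicate block, edgeR called 255 genes in the Apoe-/- sort comparison, 135 in that of the wild type, 7 and 2 between genotypes and 0 in the interaction, with 0 members called. Pool numbers were not taken as pairing because the labels do not say that same-numbered libraries share animals. Such libraries correlated at 0.04 to 0.42 in wild-type and 0.06 to 0.21 in Apoe-/- mice. The own number was the best match in wild-type pools 4 and 5 and in Apoe-/- pools 1, 2, 4, 5 and 6. The presence or absence of Y-linked reads was the same in both sorts at every pool number. Wild-type pool 4 had the highest monocyte marker sums in both sorts. Shared animals are therefore not excluded, and the main fit ignores any such pairing. DESeq2 called 165, 102, 24, 2 and 2 genes in the same order. Over all other settings counts ran between 0 and 255, 6 and 135, 2 and 96, 1 and 16, and 0 and 17. The wild-type sterol median was 0.04 from FPKM with limma, with 11 positive. For the sort with the replicate block, it was 0.15 with 16 positive in wild-type and -0.17 with 6 positive in Apoe-/- cells. Depth limits Elovl6 and Fads2 most, with 0 reads in 1 library each. Mvk and Nsdhl, named above for low p, also rest on few reads. Over 22 libraries Mvk had a median of 25.5 and a lowest value of 2.3 estimated reads, and Nsdhl 30 and 4.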
